A study of Rattus norvegicus with 15 samples.

Results

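The genes described here encode the proteins that license, fire and copy replication origins. The set of 43 genes was chosen by name, and a probe belonged to it if the array files gave one of these names; the MCM helicase genes were not in the set. It held 57 of the 45598 probes on the array, for 42 of the 43 genes, since no probe carried the name Chaf1a. Of these genes 31 were bright enough to be tested, among 17055 tested features. By role, 9 of the genes belonged to origin licensing, 7 to origin firing and the partners of the helicase, 25 to the fork and 2 to chromatin assembly.

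Liver cells from female Wistar rats were labelled with Hoechst33342, a dye of DNA, and cytometry separated the hepatocytes by DNA content into the fractions 2c, 4c and 8c, a diploid cell that has not yet replicated being 2c. The labels number the samples of each fraction 1 to 5, here called experiments, with animals of 12, 14, 6, 5 and 6 weeks in that order, and each gave 1 one-colour array per fraction, so n = 5 per group. All groups shared the strain, the sex and the isolation and sorting procedure, the labels name no treatment, and the number of animals per experiment is not given in the sources used here, so p-values measure only the spread between these samples. DNA content alone does not separate a tetraploid cell from a diploid cell that has finished replication, nor an octoploid cell from a tetraploid one at that stage. Signals are log2 values relative to the 75th percentile of each array, so a level of -1 is 1 log2 unit below that percentile. They are relative levels in the RNA of a sorted fraction, in which fewer cells of a type and less RNA per cell cannot be told apart.

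Before S phase, the origin recognition complex with Cdc6 and Cdt1 loads the MCM helicase onto origins, a step that geminin blocks once S phase has begun. The Cdc7 and Dbf4 kinase then fires licensed origins by allowing Cdc45 and the GINS complex to join MCM as the active helicase. At the fork primase and the DNA polymerases copy the strands around the clamp PCNA, the ligase Lig1 joins the Okazaki fragments, and chromatin assembly factor 1 places histones behind the fork. Hepatocytes of the maturing liver become polyploid when they replicate their DNA without completing cell division.

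The share of probes that the extraction software called well above background was 39.5% to 47.4% over the 15 arrays, and no spot was saturated. Genes that define hepatocytes had similar summed linear levels in all fractions (711 to 1140 in 2c, 733 to 1085 in 4c and 693 to 996 in 8c, over 10 genes, with the 75th percentile at 1), and each of the 10 was above background on every array. The summed level of 12 Kupffer cell markers ranged from 0.80 to 15.2 in 2c, from 0.19 to 0.65 in 4c and from 0.15 to 0.59 in 8c. For 12 stellate cell markers the ranges were 1.15 to 10.5, 0.31 to 0.81 and 0.28 to 0.91, and for 8 endothelial markers 0.25 to 1.88, 0.05 to 0.20 and 0.04 to 0.21. The defining markers Marco of Kupffer cells, Dcn and Col1a1 of stellate cells and Tie1 of endothelial cells were above background on none of the arrays. Called lower in 4c than in 2c were 7 of 9 tested Kupffer markers, 6 of 8 stellate markers and 3 of 6 endothelial markers. In 8c against 2c the numbers called lower were 8, 6 and 4, and in 8c against 4c 0 of these markers were called in either direction. The cholangiocyte markers Krt7, Cftr, Spp1 and Krt19 were above background on no array, while Epcam, another marker of that list, was lower in 4c and in 8c than in 2c (log2 -0.61 and -0.79, limma adjusted p = 0.0429 and 0.0080). Transcripts of pancreatic acinar cells were abundant on 6 arrays, the 2c and 8c arrays of experiment 1, all 3 arrays of experiment 2 and the 8c array of experiment 3. Slide 2 carried experiments 4 and 5 whole with the 8c sample of experiment 3, and slide 1 the other 8 arrays.

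Detection differed by role. The fork was the best measured, with 20 of 25 genes tested, against 5 of 9 for licensing, 5 of 7 for firing and 1 of 2 for chromatin assembly. A gene entered the test if a probe of it exceeded background on 5 or more of the 15 arrays. In all, 24 members had a probe above background on all 15 arrays and 8 members had none above background on any. The licensing genes without a tested probe were Orc1 and Orc6, subunits of the origin recognition complex above background on 0 of 15 arrays, and the loaders Cdc6 and Cdt1. Cdt1 lay above background on 1 array, the 2c array of experiment 5, at -3.84, while its other 14 levels were -5.84 or lower. Cdc6 lay above background on the 2c array of experiment 4 alone, at -6.04, with -5.92 on the 2c array of experiment 5, whose spot did not pass that call. Among the firing genes, the kinase Cdc7 and the GINS subunit Gins2 were above background on 0 of 15 arrays. At the fork the same was true of Pola1 and Pola2, the catalytic and accessory subunits of polymerase alpha, and of Pole2 and Pole4 of polymerase epsilon. The checkpoint mediator Clspn was above background on 1 array, the 4c array of experiment 5, with 1 of its 3 probes (-4.92). For these genes no difference between fractions was detectable at this signal, which does not show that they were absent.

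**Figure D1:**
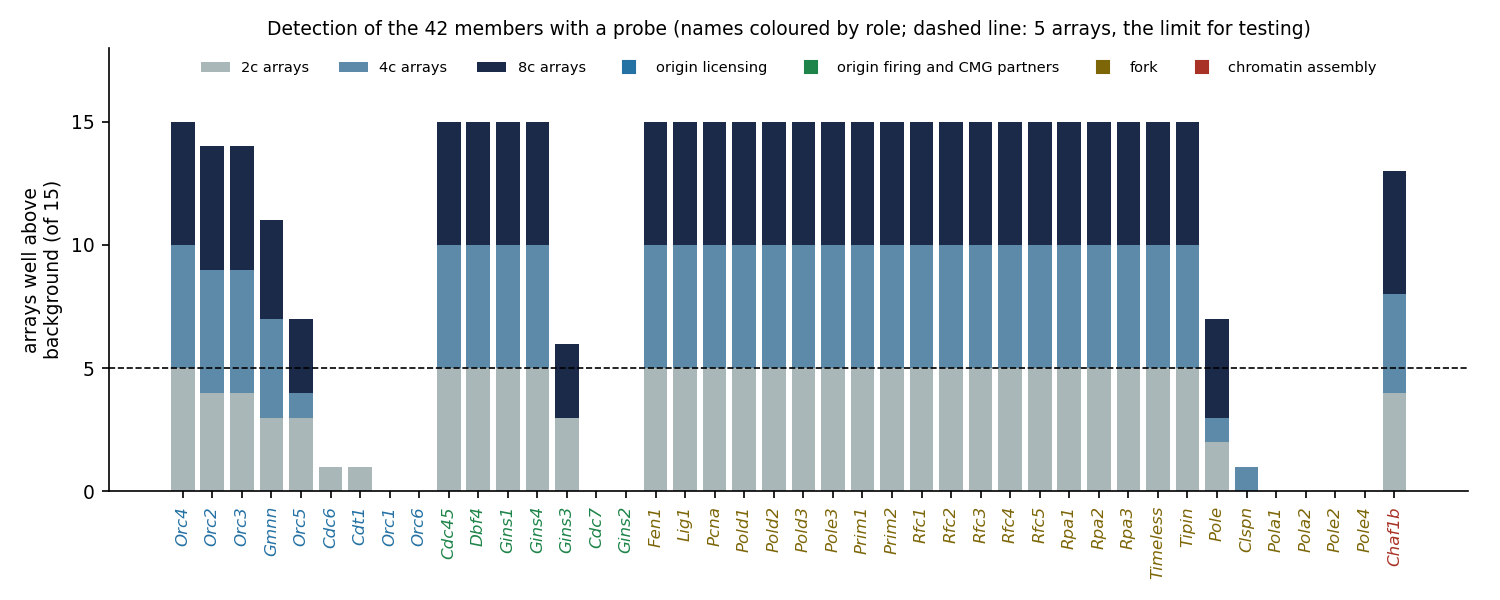
Number of arrays, of 15, on which the best probe of each of the 42 members with a probe was well above background, split into 2c, 4c and 8c arrays, with gene names coloured by role and a dashed line at the 5 arrays needed for testing. Of the 42, 24 reach 15 arrays and 8 reach none.

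The tested members were on the whole lowest in the 4c fraction, which had the lowest of the 3 group means for 25 of 31, beside 36.5% of all features. In 4c against 2c, 28 of 31 had a fitted difference below 0, beside 57% of all features, and the log2 differences had a median of -0.25 among the members and -0.03 among all features. In 8c against 4c only 4 of 31 lay below 0, beside 49% of all features, with medians of 0.25 and 0.00. Since both comparisons use the same 4c arrays, they are not independent of each other. Between the ends of the range, 8c against 2c, 15 of 31 lay below 0 (55.3% of all features) and the median was 0.00.

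**Figure D2:**
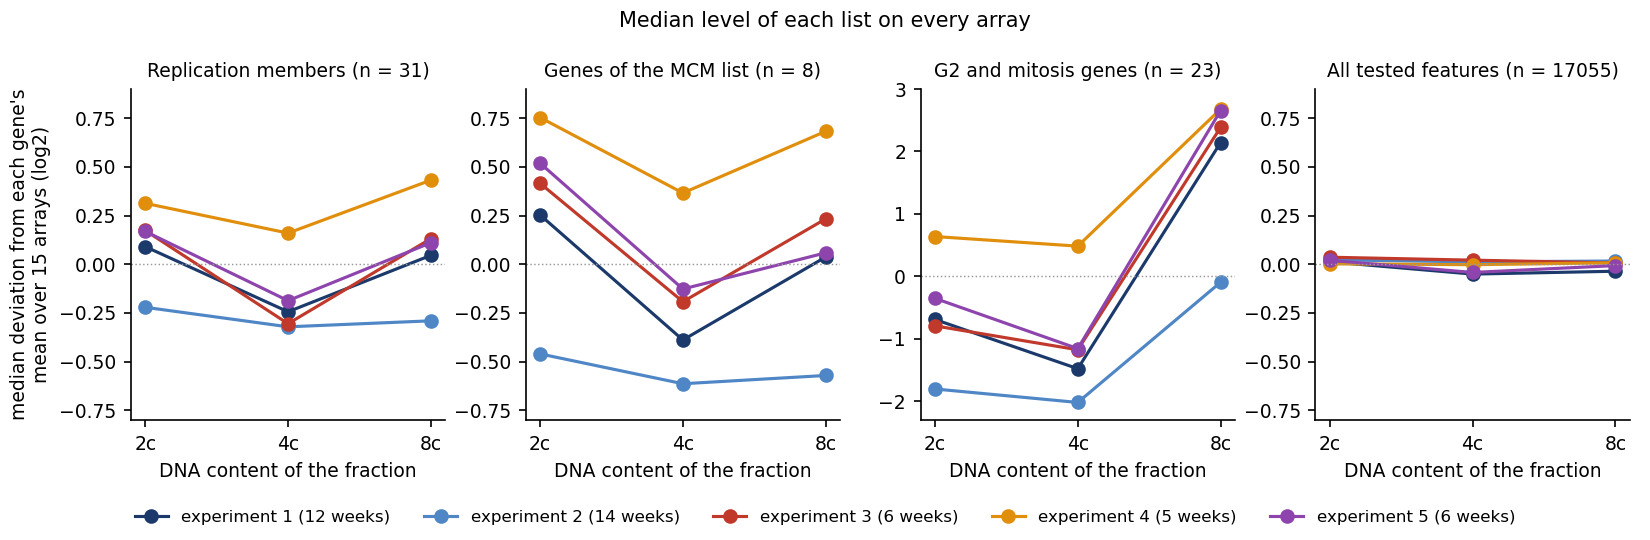
Median deviation of each list from its genes' own means over the 15 arrays (log2), by DNA content, with 1 line per experiment: the 31 replication members, 8 genes of an MCM list (5 helicase subunits with Mcm8, Mcm10 and Mcmbp), 23 genes of G2 and mitosis (on a wider axis) and all 17055 tested features. The members and the MCM genes have their lowest median at 4c in every experiment, with the smallest dip in experiment 2, while the mitotic genes rise at 8c.

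The dip was not the same in every experiment. The 4c array held the lowest of the 3 levels for 25 of the 31 members in experiments 1, 3 and 5 each and for 21 in experiment 4, but for 7 in experiment 2. The median log2 difference of 4c from 2c was -0.35, 0.01, -0.49, -0.20 and -0.37 in experiments 1 to 5, and that of 8c from 4c was 0.27, -0.01, 0.50, 0.30 and 0.28. Experiment 2, of the animals of 14 weeks, thus had medians close to 0 in both comparisons. It is also the experiment whose 3 arrays all held acinar transcripts. The summed Kupffer markers on the 2c arrays were 15.2, 1.15, 4.02, 0.80 and 3.80 in experiments 1 to 5, so experiments 2 and 4, with the smallest median differences of 4c from 2c, had the lowest sums; their part in the difference of 4c from 2c was not tested. In 8c and 4c the sums of these markers lay in overlapping ranges, but within every experiment the sum was lower in 8c. They were 0.40, 0.19, 0.65, 0.40 and 0.24 in 4c and 0.20, 0.15, 0.59, 0.32 and 0.15 in 8c. Over all experiments the 16 acinar genes had medians of -2.66 in 4c against 2c and 2.88 in 8c against 4c, with 0 called. The members' medians without the 6 arrays that held them were -0.36 and 0.32. That fit drops experiment 2 whole and leaves experiment 1 with its 4c array alone, so its differences come from experiments 3 to 5. In experiments 3 to 5 only, the medians were -0.36 and 0.33. The part of the acinar transcripts thus cannot be told apart from that of the older experiments. Over the 31 members, 18 were lowest in 4c in at least 4 of the 5 experiments, beside 8.44% of all features, and 5, all of them fork genes (Lig1, Pold1, Pold2, Prim1 and Rfc3), in 5 of 5, beside 1.5%.

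Single genes passed the test in small numbers. In 4c against 2c, 4 members were lower and 0 higher (limma, adjusted p under 0.05), beside 1.01% of all features lower and 0.264% higher. Among the 4, Gins3 was above background on 0 4c arrays and was kept through its 2c and 8c arrays. Before adjustment, a p under 0.05 was reached by 17 members lower and 0 higher, against 10.1% and 5.8% of all features. In 8c against 4c, 5 members were higher and 0 lower, beside 0.639% and 0.0117% of all features. Unadjusted, 15 members were higher there (4.55%) and 1, Rfc1, lower (3.21%). In 8c against 2c, 1 was higher and 1 lower, beside 0.809% and 1.56%, and unadjusted 5 were higher and 4 lower, beside 6.37% and 8.59%. Set against the mean of 2c and 8c, 3 were lower in 4c and 0 higher, beside 0.387% and 0.0176%, and unadjusted 18 and 0, beside 7.34% and 3.99%. In that comparison the median was -0.26 and 29 of 31 lay below 0 (55.7% of all features).

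Single experiments were also counted. Lower in 4c than in 2c in 5 of 5 experiments were 11 members (8.61% of all features) and higher 0 (5.27%). Higher in 8c than in 4c in 5 of 5 were 11 (8.82%) and lower 1 (4.71%). Against the mean of 2c and 8c, 12 were lower in 4c in 5 of 5 (9.47%) and 0 higher (5.26%). In 8c against 2c, by contrast, Gins1, Gins4, Gmnn and Lig1 were higher in 5 of 5 (7.19%) and Orc5, Rfc1, Rfc2, Rpa1 and Rpa2 lower (8.07%). The levels of the 2 groups did not overlap for 2 members in 4c against 2c, Gins3 and Orc4 (0.938% of all features lower, 0.381% higher), and for 0 members in 8c against 4c (0.334% higher, 0.223% lower) and in 8c against 2c (0.475% higher, 0.885% lower). Gins3 was above background on 0 4c arrays.

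The calls changed with the samples and the block used. Without the replicate block, which removes the level of each experiment, 0 members were called in each of the 4 comparisons, and of all features 39 in 8c against 2c, 3 in 4c against 2c and 0 in both others. Within slide 1 or slide 2 alone, and without the 6 arrays with acinar transcripts, 0 members were called as well, but these smaller fits called 0 or 1 of all 17055 features in each comparison. Leaving out an experiment changed the calls among all features too. In 4c against 2c they went from 217 to 49, 25, 20, 185 and 3 without experiments 1 to 5. In 8c against 4c they went from 111 to 51, 128, 53, 57 and 53, and in 8c against 2c from 404 to 165, 236, 234, 274 and 102. Against the mean of 2c and 8c they went from 69 to 0, 71, 0, 42 and 1. Members' calls lost without an experiment, given below, stand beside these counts. The medians moved less: within slide 1 and slide 2 those of 4c against 2c were -0.29 and -0.29 and those of 8c against 4c 0.21 and 0.28.

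**Figure D3:**
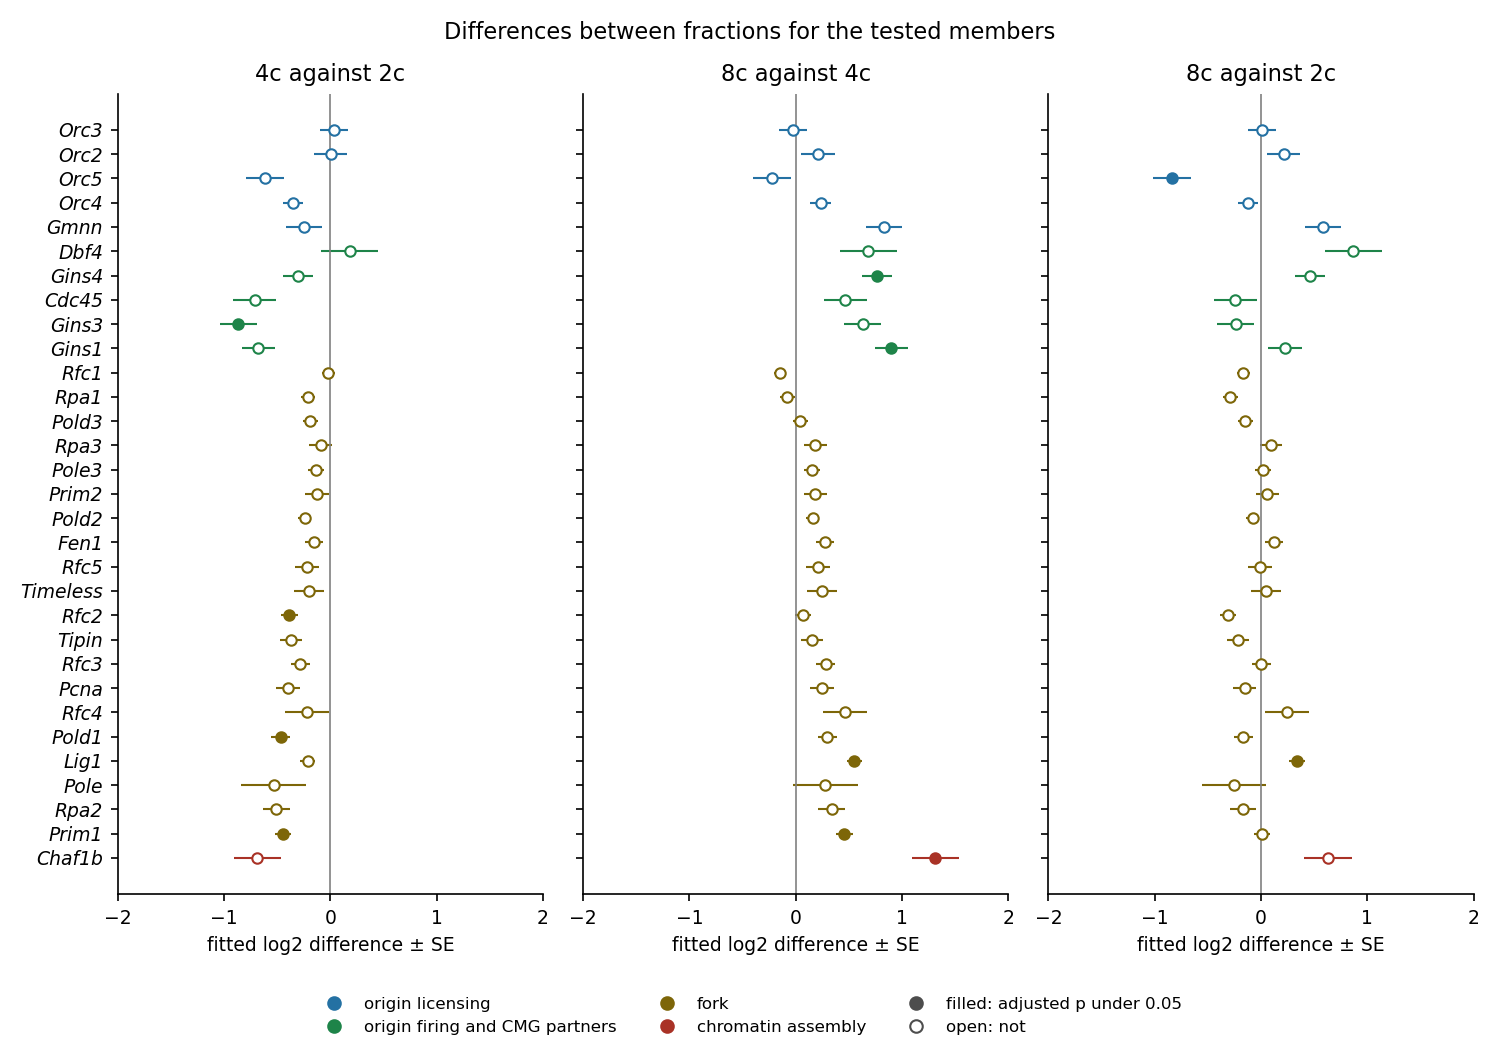
Fitted log2 difference with its SE (limma, 15 arrays) for each of the 31 tested members for 4c minus 2c, 8c minus 4c and 8c minus 2c in separate panels, coloured by role, with filled points for an adjusted p under 0.05. Most points lie left of 0 in 4c against 2c and right of 0 in 8c against 4c, and Lig1 and Orc5 are the filled points of 8c against 2c.

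Since most members moved together, their promoters were searched for sites of factors known to control cell cycle genes. RefSeq windows (GRCr8 assembly, from 250 bases before to 50 after the annotated start) were at hand for 38 of the 43 genes. E2F words (TTTCCCGC, TTTGGCGC, TTTGCCGC or TTTCGCGC, either strand, overlaps with other motifs allowed) were in 17 of the 38 windows, 44.7%, against 2.25% of all 27457 windows and 4.11% of those of tested features. By role the share was 4 of 6 windows for licensing, 2 of 6 for firing, 11 of 24 for the fork and 0 of 2 for chromatin assembly. Members without a tested probe held such a word in 5 of 10 windows and tested members in 12 of 28. The MCM genes held one in 7 of 9 windows and the genes of G2 and mitosis in 1 of 22. The CHR motif TTTGAA of late cell cycle genes showed the opposite order, with 4 of 38 members (10.5%), 16 of 22 mitotic genes (72.7%) and 18.1% of all windows. Among the windows of tested features the share was 12.2%, near that of the members. By role CHR was in 3 of 6 windows for firing, 1 of 24 for the fork, 0 of 6 for licensing and 0 of 2 for chromatin assembly. CCAAT, the motif of NF-Y, was in 18 of 38 (47.4%), 17 of 22 (77.3%) and 37.7%. A match is a description of the letters in this window and not evidence of binding, and a missing match says nothing about the factor.

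**Figure D4:**
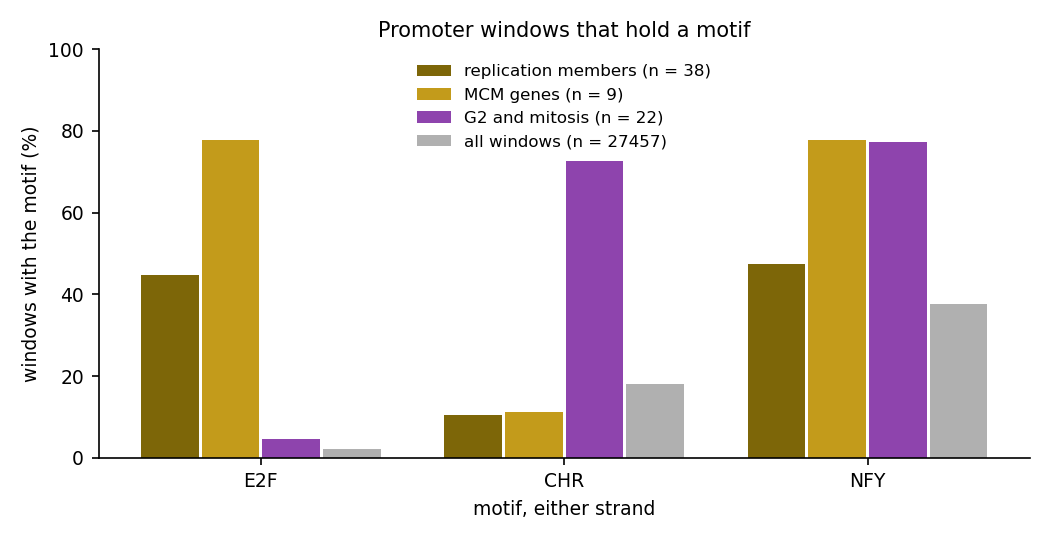
Share of RefSeq promoter windows (percent) that hold an E2F word, the CHR motif or the NF-Y motif on either strand, for 38 replication members, 9 MCM genes, 22 genes of G2 and mitosis and all 27457 windows. The members stand at 44.7% for E2F and 10.5% for CHR, the mitotic genes at 4.55% and 72.7%.

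The 250 bases before the start are shown for a pair of GINS genes that were called, Gins1 and Gins3, for Orc5, the called licensing gene, and for Chaf1b, called with the largest difference. Capitals mark E2F and CCAAT matches on either strand. They lie at chr3:160184670-160184919 (Gins1, plus strand), chr19:9434680-9434929 (Gins3, minus strand), chr4:13440083-13440332 (Orc5, plus strand) and chr11:46670400-46670649 (Chaf1b, plus strand) of GRCr8, each printed 5′ to 3′ on the strand of its gene.
Gins1: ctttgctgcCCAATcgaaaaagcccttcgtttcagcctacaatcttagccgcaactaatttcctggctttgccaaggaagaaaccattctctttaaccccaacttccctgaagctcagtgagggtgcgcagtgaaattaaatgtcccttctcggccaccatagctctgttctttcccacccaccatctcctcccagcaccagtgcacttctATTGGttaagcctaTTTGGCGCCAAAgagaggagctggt
Gins3: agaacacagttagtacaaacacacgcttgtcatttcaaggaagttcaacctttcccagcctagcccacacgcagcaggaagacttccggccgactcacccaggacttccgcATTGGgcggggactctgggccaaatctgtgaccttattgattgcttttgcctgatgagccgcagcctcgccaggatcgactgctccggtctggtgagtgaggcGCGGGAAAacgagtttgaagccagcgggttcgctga
Orc5: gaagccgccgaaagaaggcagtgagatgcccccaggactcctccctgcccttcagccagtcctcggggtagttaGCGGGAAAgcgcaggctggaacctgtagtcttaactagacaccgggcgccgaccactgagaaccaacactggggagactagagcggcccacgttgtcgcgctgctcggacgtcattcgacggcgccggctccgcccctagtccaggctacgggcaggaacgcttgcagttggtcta
Chaf1b: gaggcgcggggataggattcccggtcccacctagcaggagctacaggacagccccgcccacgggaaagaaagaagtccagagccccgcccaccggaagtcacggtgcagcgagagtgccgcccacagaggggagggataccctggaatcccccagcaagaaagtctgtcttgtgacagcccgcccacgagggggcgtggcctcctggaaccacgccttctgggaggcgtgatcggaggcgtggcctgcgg
Counting back from the start, the E2F word of Gins1 stood on both strands in overlapping places that begin at -25 and -21, with CCAAT at -241 and, on the opposite strand to the one printed, at -39. In Gins3 the E2F word began at -36 and CCAAT at -139, both on the opposite strand, and a CHR motif, left in lower case, at -23. Orc5 held 1 E2F word, at -176 on the opposite strand, and Chaf1b held no match to any of the motifs. The genes shown were picked because they were called, and the other called genes are not shown. Of the called fork genes, Prim1, Pold1 and Rfc2 held no E2F word in their windows, and Lig1 held 1, after the start. Whether an E2F word goes with a difference between fractions was not tested.

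Of the 5 tested licensing genes, 1 was called. Orc5, a subunit of the ring of the origin recognition complex, fell from 2c to 8c. Its levels in experiments 1 to 5 were -5.74, -6.23, -5.47, -6.14 and -5.92 in 2c, -6.30, -7.24, -5.84, -6.72 and -6.45 in 4c, and -6.60, -7.98, -6.10, -6.94 and -6.06 in 8c. Every experiment had its highest level in 2c, and the groups overlapped. The log2 difference of 8c from 2c was -0.84 (SE 0.18, limma adjusted p = 0.0402), and that of 4c from 2c was -0.61 (SE 0.18, limma adjusted p = 0.139). The probe was dim, with 3 of 5 2c arrays, 1 of 5 4c arrays and 3 of 5 8c arrays above background. Its lowest level, -7.98 in 8c of experiment 2, lay under the lowest signal above background on that array (-6.22), so no fold is given, and over the alternatives tried the difference ran from -1.31 to -0.24. The array files place it at chr4:7990092-7995215 of the rn4 assembly, an interval of 5124 bases. Positions of probes below are from the same files and assembly, and which exon they lie in was not analysed here. The call was lost without any single experiment except experiment 5.

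The other ORC subunits with a tested probe did not pass. Orc4 ranged from -3.15 to -2.93 in 2c and from -3.70 to -3.23 in 4c, ranges that did not overlap, with a log2 difference of -0.35 (SE 0.10, limma adjusted p = 0.116). Its other probes were dim, above background on 7 and 0 of 15 arrays. Orc2 and Orc3 had log2 differences of 4c from 2c of 0.00 (SE 0.16) and 0.04 (SE 0.13) with the brightest probe. Their second probes, above background on 11 and 12 of 15 arrays, differed by -0.55 (SD 0.15, n = 5) and -0.21 (SD 0.55, n = 5). Gmnn, geminin, the inhibitor of Cdt1, had mean levels of -5.42 in 2c, -5.67 in 4c and -4.83 in 8c (SD 0.28, 0.20 and 0.54, n = 5). Its difference of 8c from 4c, 0.83 (SE 0.17), did not pass (limma adjusted p = 0.0819) but was called without experiment 2. Over the licensing genes the median of the fitted differences was -0.25 in 4c against 2c and 0.21 in 8c against 4c. Within experiments 1 to 5 the median of 8c against 4c was 0.01, -0.01, 0.08, -0.10 and 0.27, above 0.21 in experiment 5 alone.

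The firing genes showed the deepest median dip of the roles with more than 1 gene, -0.68 in 4c against 2c and 0.68 in 8c against 4c over 5 genes, and 3 of the 5 were called in at least 1 comparison, all of them GINS subunits. GINS is the complex that holds the active helicase together. Gins1 (chr3:141557234-141557293) had levels of -4.28, -4.41, -3.95, -3.08 and -3.52 in 2c, -4.86, -4.25, -5.13, -3.80 and -4.56 in 4c, and -3.91, -3.82, -3.94, -2.95 and -3.49 in 8c of experiments 1 to 5. The 4c level was the lowest in every experiment but the second, and the groups overlapped, with experiment 4 the highest in each fraction. Gins1 was 1.87-fold higher in 8c than in 4c (log2 0.90, SE 0.16, limma adjusted p = 0.033) and lower in 4c than the mean of 2c and 8c (log2 -0.79, SE 0.14, limma adjusted p = 0.0447). Both calls were kept without experiment 2 and lost without any one of the others.

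Gins3 (chr19:9876694-9876753) had levels of -6.14, -6.31, -5.27, -5.65 and -6.04 in 2c, -6.94, -6.80, -6.54, -6.43 and -7.03 in 4c, and -6.21, -6.96, -6.00, -5.29 and -6.15 in 8c. All 4c levels lay below all 2c levels. The log2 difference was -0.87 (SE 0.17, limma adjusted p = 0.0471). All 5 4c arrays and 2 of the 5 2c arrays were not well above background. Gins3 entered the test only through 3 2c and 3 8c arrays, the groups where it was brighter. Its call is therefore not independent support for a low 4c level. With each 4c array at no less than its lowest signal above background and the 2c mean as measured, 4c was 1.59-fold lower. That 2c mean includes the dim 2c arrays, so the fold is approximate.

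Gins4 (chr16:73257037-73257096) had levels of -4.87, -4.71, -4.35, -3.87 and -4.29 in 2c, -4.92, -4.68, -5.29, -4.21 and -4.51 in 4c, and -4.06, -4.36, -3.96, -3.63 and -3.78 in 8c. The 8c level was the highest in every experiment, with overlap between groups. Gins4 was 1.70-fold higher in 8c than in 4c (log2 0.76, SE 0.14, limma adjusted p = 0.0453). The calls of Gins3 and Gins4 were lost without any one of the 5 experiments. Cdc45, the third part of the active helicase, also had its lowest mean in 4c but its highest in 2c. It did not pass (-0.71, SE 0.20, in 4c against 2c, limma adjusted p = 0.132). Dbf4, the activator of the Cdc7 kinase, rather had its lowest mean in 2c (-5.00, SD 0.39) and its highest in 8c (-4.13, SD 0.50), with a difference of 0.87 (SE 0.27, limma adjusted p = 0.152).

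**Figure D5:**
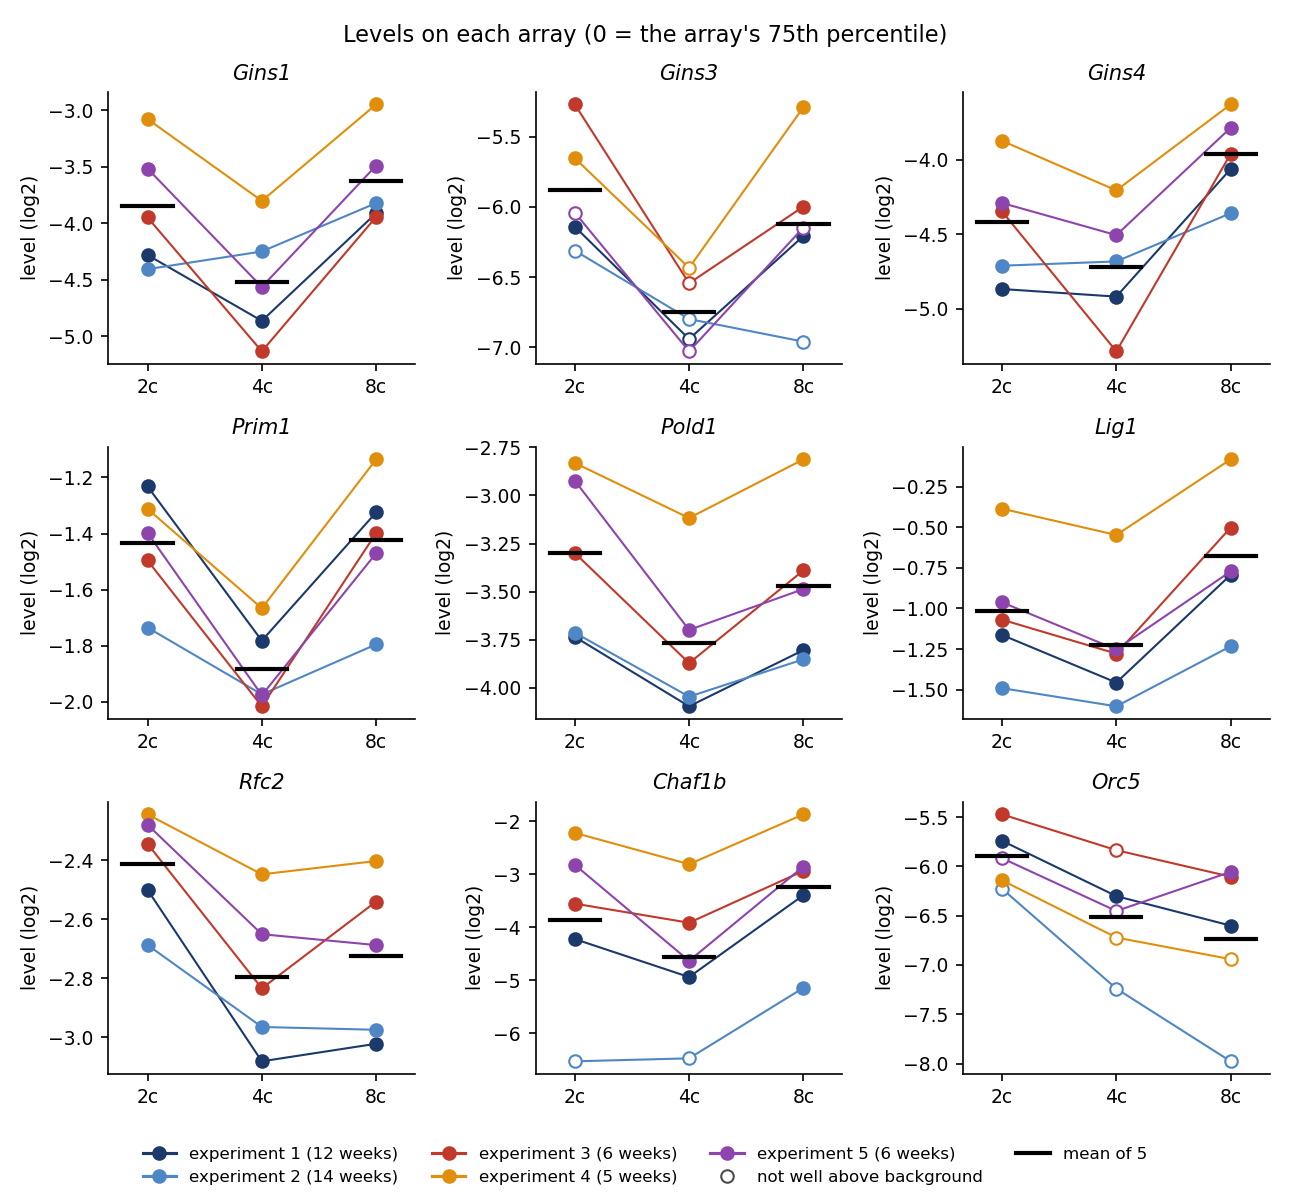
Levels (log2, 0 being the 75th percentile of the array) of the 9 members called in at least 1 comparison, by DNA content, with 1 line per experiment, open points for arrays not well above background and black bars for the mean of 5. Prim1, Pold1 and Lig1 have their lowest level at 4c in all 5 experiments, while Orc5 declines from 2c.

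At the fork 20 of 20 tested genes had a fitted difference below 0 in 4c against 2c, from -0.53 to -0.02 with a median of -0.22, and 3 were called lower. In 8c against 4c the median was 0.23 and 2 were called higher, and in 8c against 2c the median was -0.04 and 1 was called. Prim1, the catalytic subunit of the primase that makes the RNA primers, was called in 3 comparisons, as was Lig1. At its probe (chr7:1321717-1321776) levels were -1.23, -1.74, -1.50, -1.31 and -1.40 in 2c, -1.78, -1.97, -2.02, -1.67 and -1.98 in 4c, and -1.32, -1.80, -1.40, -1.14 and -1.47 in 8c. The 4c level was the lowest in all experiments, and only experiment 2, low in 2c and 8c, made the groups overlap. The log2 difference was -0.45 for 4c against 2c (SE 0.08, limma adjusted p = 0.034), 0.46 for 8c against 4c (SE 0.08, limma adjusted p = 0.0253) and -0.45 for 4c against the mean of both (SE 0.07, limma adjusted p = 0.0189). Levels in 8c and 2c did not differ beyond their spread (log2 0.01, SE 0.08). Prim2, the other primase subunit, moved less (-0.13, SE 0.11, in 4c against 2c).

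Lig1, the ligase that joins Okazaki fragments, was lowest in 4c and highest in 8c in every experiment. At the brighter of its probes (chr1:73767369-73767428) levels were -1.16, -1.49, -1.07, -0.39 and -0.96 in 2c, -1.46, -1.60, -1.28, -0.55 and -1.25 in 4c, and -0.79, -1.23, -0.50, -0.08 and -0.77 in 8c. The experiments stood in nearly the same order in each fraction, with experiment 4 the highest and experiment 2 the lowest, so the groups overlapped. Lig1 was 1.46-fold higher in 8c than in 4c (log2 0.55, SE 0.07, limma adjusted p = 0.00621), 1.26-fold higher in 8c than in 2c (log2 0.34, SE 0.07, limma adjusted p = 0.042) and lower in 4c than the mean of both (log2 -0.38, SE 0.06, limma adjusted p = 0.0349). The second probe (chr1:73767023-73767082) differed by 0.61 (SD 0.23) between 8c and 4c and by 0.22 (SD 0.19) between 8c and 2c, and with the mean of both probes the call in 8c against 2c was lost. The call in 8c against 4c was kept without any single one of the 15 arrays and without experiments 2 or 3, but not without experiments 1, 4 or 5; its other calls were lost without any one experiment.

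Pold1, the catalytic subunit of polymerase delta, measured at chr1:95010792-95011164, had levels of -3.73, -3.71, -3.30, -2.83 and -2.92 in 2c, -4.10, -4.05, -3.87, -3.12 and -3.70 in 4c, and -3.80, -3.85, -3.39, -2.81 and -3.49 in 8c. In every experiment 4c was the lowest, with differences from 2c of -0.78 to -0.29, while the groups overlapped. The log2 difference of 4c from 2c was -0.47 (SE 0.09, limma adjusted p = 0.0429). Its partners Pold2 and Pold3 differed by -0.24 (SE 0.06) and -0.19 (SE 0.07) and did not pass.

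Rfc2, a subunit of the clamp loader (probe at chr12:23185837-23185896), had levels of -2.50, -2.69, -2.34, -2.24 and -2.28 in 2c, -3.08, -2.97, -2.83, -2.45 and -2.65 in 4c, and -3.02, -2.98, -2.54, -2.40 and -2.69 in 8c. Its 2c level was the highest in every experiment and the groups overlapped. The difference was -0.39 for 4c against 2c (SE 0.08, limma adjusted p = 0.0452) and -0.31 for 8c against 2c (SE 0.08, limma adjusted p = 0.0674). Of the other clamp loader subunits, Rfc3, Rfc4 and Rfc5 differed by -0.28, -0.22 and -0.22 in 4c against 2c, and Rfc1, the large subunit, by -0.02. Rfc1 was lower in 8c than in 4c in 5 of 5 experiments, with differences of -0.19 to -0.09, and did not pass (limma adjusted p = 0.62). The calls of Prim1, Pold1 and Rfc2 in 4c against 2c were lost without any one of the 5 experiments. Those fits called 49, 25, 20, 185 and 3 of all features there, against 217 with all experiments. The calls of Prim1 in the other comparisons were kept without experiment 2 only.

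The rest of the fork genes did not pass in any comparison of fractions. Pcna, the sliding clamp, had mean levels of -1.47, -1.87 and -1.63 in 2c, 4c and 8c (SD 0.40, 0.34 and 0.35, n = 5), with a difference of 4c from 2c of -0.40 (SE 0.11, limma adjusted p = 0.123). Of the subunits of RPA, which covers single-stranded DNA, Rpa2 differed by -0.51 (SE 0.12, limma adjusted p = 0.0861), Rpa1 by -0.21 and Rpa3 by -0.09. Rpa1 was lower in 8c than in 2c in 5 of 5 experiments (log2 -0.29, SE 0.07, limma adjusted p = 0.0655), and its second probe differed by -0.42 (SD 0.21). The flap nuclease Fen1 differed by -0.15 in 4c against 2c and the fork protection proteins Timeless and Tipin by -0.20 and -0.37. Pole, the catalytic subunit of polymerase epsilon, was above background on 7 of 15 arrays and differed by -0.53 with an SE of 0.30. Pole3, a histone-fold subunit of the same enzyme, differed by -0.13 with the brightest probe and by 0.22 (SD 0.63) with the other, so its direction depends on the probe.

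Chaf1b, the middle subunit of chromatin assembly factor 1, had the largest difference between fractions among the called members. At chr11:34130836-34130895 its levels were -4.23, -6.53, -3.56, -2.22 and -2.82 in 2c, -4.94, -6.48, -3.92, -2.81 and -4.64 in 4c, and -3.40, -5.15, -2.94, -1.87 and -2.86 in 8c. Experiment 2 lay far below the others in each fraction and its 2c and 4c arrays were not well above background, while 8c was above 4c in every experiment. Chaf1b was 2.49-fold higher in 8c than in 4c (log2 1.31, SE 0.22, limma adjusted p = 0.0274). In 4c against 2c the difference was -0.69 (SE 0.22, limma adjusted p = 0.177). The call was kept without experiment 2 or 5 and lost without experiment 1, 3 or 4. A second probe was above background on 1 array.

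Genes of the same pathway outside the set were taken as lists. The MCM list had 8 tested genes: Mcm2, Mcm3, Mcm4, Mcm5 and Mcm7, subunits of the helicase that licensing loads, and Mcm8, Mcm10 and Mcmbp, which are not. In 4c against 2c all 8 lay below 0 (median -0.53) and Mcm3, Mcm5 and Mcm2 were lower, at log2 -1.27, -1.11 and -0.64 (limma adjusted p = 0.0371 for the first pair and 0.0429 for Mcm2). In 8c against 4c the median of the list was 0.39 with 0 called, and in 8c against 2c it was -0.30 with Mcm2 lower (log2 -0.71, SE 0.12, limma adjusted p = 0.0157). Of 32 further replication and S phase genes, 25 lay below 0 in 4c against 2c (median -0.23). Of these 1 was called lower, the cyclin Ccne1 (log2 -0.94, SE 0.17, limma adjusted p = 0.0389). The median of the list was 0.03 in 8c against 2c, where 2 genes, Rrm2 and Tk1, were called higher. In 8c against 4c the median was 0.18 and 3 genes were called higher. Those were Rrm2 and Rrm1, the subunits of ribonucleotide reductase, and the thymidine kinase Tk1, at log2 4.17, 0.66 and 1.11 (limma adjusted p = 0.000588 for Rrm2, 0.0145 for Rrm1 and 0.0111 for Tk1). The 23 tested genes of G2 and mitosis also had a median below 0 in 4c against 2c, -0.38, with 19 below 0 and 0 called. Set against the mean of 2c and 8c, which their 8c level enters, 22 lay below 0 in 4c and 13 were called lower (median -1.68). In 8c against 4c and 8c against 2c, by contrast, their medians were 3.09 and 2.60, with 19 and 20 called, all higher. Beside these, the members' medians of 0.25 and 0.00 in 8c against 4c and 8c against 2c were small; the difference between the lists was not tested.

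The comparison by age asks whether the members' levels, averaged over the 3 fractions, differed between the 2 experiments with animals of 12 and 14 weeks and the 3 with animals of 5 and 6 weeks. Most members were lower in the older animals: 28 of 31 lay below 0, beside 53% of all features, with medians of -0.35 and -0.02. No member passed, nor did any feature (0% called; limma on 5 experiment means), and at an unadjusted p under 0.05 7 members were lower and 0 higher, beside 6.41% and 6.82% of all features. These were Chaf1b (-2.05, SE 0.64), Fen1 (-0.73, SE 0.13), Rpa2 (-0.60, SE 0.15), Pold1 (-0.60, SE 0.21), Pold2 (-0.58, SE 0.22), Dbf4 (-0.53, SE 0.16) and Rfc2 (-0.38, SE 0.13). With the 15 arrays and the experiment as a random block, 642 features and 3 members, Fen1, Chaf1b and Pold2, were called, all 3 members lower (limma adjusted p = 0.0049 for Fen1, 0.0362 for Chaf1b and 0.042 for Pold2). Age varies only between the 5 experiments, and this fit gives all features the same correlation within an experiment, 0.385. Arrays of an experiment thus count in part as replicates for age, and these p-values can be too small. The means of the older experiments lay below all younger ones for 14 of 31 members, beside 18.5% of all features, and above them for 1, Pole3, beside 14.7%.

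The experiments did not fall into 2 even classes. Averaged over fractions, the members' median deviation was -0.04 and -0.28 in experiments 1 and 2 and 0.00, 0.30 and 0.03 in experiments 3 to 5, so the experiment of 14 weeks was the lowest and that of 5 weeks the highest. The older experiments lay whole on slide 1, beside the 2c and 4c arrays of experiment 3. On that slide the members' median deviations in 2c were 0.09, -0.22 and 0.17 in experiments 1 to 3, and in 4c -0.24, -0.32 and -0.31. The younger experiment was thus above both older ones in 2c and between them in 4c, each value being of a single array. Acinar transcripts were on 5 of 6 arrays of the older and 1 of 9 of the younger experiments, and their part and that of the slide were not tested. Whether the difference of 8c from 2c depended on age was tested as an interaction, and 0 of 31 members passed (0% of all features; lowest limma adjusted p = 0.948 among members), with an unadjusted p under 0.05 for Gmnn (-0.58, SE 0.24) and Orc5 (-0.78, SE 0.30), both lower, beside 2.5% of all features lower and 2.17% higher.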

How the data were processed

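Agilent Feature Extraction made the deposited intensity values of each one-colour array (62976 spots) with background subtraction and detrending. The submitters' processing notes name version 10.7.3.1. The file headers give 11.5.1.1 for the placement of the grid, and which version made the values is not settled here. No step between arrays is recorded in those files. Control spots (4259) and outlier spots (264 to 539 an array) were left out, spots of a probe were averaged, and log2 intensities were set relative to each array's 75th percentile, taken over 16211 probes that every array showed well above background. Members were found by the gene name in the array files; other features were named through RefSeq accessions where these matched. Features above background on 5 or more arrays were kept, with the brightest probe per gene. limma 3.58.1 in R 4.3.3 fitted DNA content with the experiment as a block over all 17055 features, with Benjamini-Hochberg adjustment over all of them; age was fitted on the 5 experiment means. The fits were tested on simulated data. The labels number the samples within each fraction, and samples of the same number were taken as 1 experiment. Deviations from group means of arrays of the same experiment correlated (median r 0.585, lowest 0.038, 15 pairs, against -0.13 in 60 pairs of different experiments), so the block was kept. Arrays of the same number also share the age and mostly the slide, so this correlation does not prove the pairing. Precision is limited by having 5 arrays per fraction.

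The members and lists were chosen with earlier results of these data known. Values are given in full for each member called in at least 1 comparison, and other members by range, count or single values; which of those were named was decided after their values were seen. Alternatives changed the normalization, background correction, filter, probe rule, block, slide and arrays used. Coordinates of probes are rn4 as the files give them. Promoters are RefSeq windows of GRCr8, and no coordinates were moved between assemblies.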

Additional observations from a re-analysis of the deposited data

Results flagged for a closer look

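In 5 of the 93 groups of 5 arrays looked at (31 members in 3 fractions), the highest or lowest array stood apart from the other 4 by Dixon's criterion, and chance alone marks about 1 in 20 groups. Pole, dim on most arrays, had its lowest 8c level in experiment 2 (-7.989, the nearest other being -6.204), as did Tipin in 2c (-3.29, nearest -2.685). Rfc3 had its highest 4c level in experiment 4 (-1.432, nearest -1.919). Orc3 had its lowest 8c level in experiment 5 (-5.587, nearest -5.012), and Rpa3 its lowest 4c level in experiment 3 (-0.5683, nearest -0.197).

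For 3 members the difference of 4c from 2c ran in opposite directions in every older and every younger experiment. These were the only cases flagged among 62 differences of members checked in this way. Neither the number due to chance nor the share among all features was worked out, so no effect of age is claimed. Whether the ages differ was not tested for this comparison. Rfc1 had means of -0.1111 in the older and 0.04179 in the younger experiments, so older minus younger was -0.1529. Orc3 had -0.3524 and 0.2979, a difference of -0.6502, and Timeless 0.1852 and -0.4529, a difference of 0.6381.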

How the results depend on the processing

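As reported, 2 members were called in 8c against 2c, 4 in 4c against 2c, 5 in 8c against 4c and 3 in 4c against the mean of 2c and 8c. In that order, quantile normalization called 1, 1, 3 and 1, scaling to the median 2, 1, 4 and 2, the 75th percentile over all probes 1, 0, 4 and 1, normexp background correction 0, 1, 1 and 0, probes above background on all arrays (24 members tested) 1, 3, 3 and 3, no filter on dim probes (42 members tested) 0, 0, 0 and 0, the mean of a gene's probes 1, 4, 5 and 3, the values the authors deposited as a table gave 2, 4, 5 and 4, and a slide term 0, 1, 1 and 2. With no replicate block the counts were 0, 0, 0 and 0, and likewise 0 in each comparison within slide 1, within slide 2, without the arrays with acinar transcripts, in experiments 3 to 5 only and in experiments 1 and 2 only, fits on fewer arrays that called at most 9 of all features. Leaving out an experiment or a single array gave 0 to 4, 0 to 4, 0 to 6 and 0 to 4. The comparison by age kept 0 in each such fit and had 3 with the experiment as a random block. The cause of these changes was not tested. Among the called members no difference changed sign in the alternatives run, from leaving out arrays to the slide term; 136 of their values kept their call and 351 lost it.

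The members' medians over the alternatives ran from -0.36 to -0.17 in 4c against 2c, from 0.11 to 0.33 in 8c against 4c and from -0.38 to -0.15 in 4c against the mean of 2c and 8c. In 8c against 2c they ran from -0.13 to 0.08, with -0.11 under normexp, -0.13 with no filter and -0.09 within slide 1. Normexp moved the median of all features in 8c against 2c to -0.11 and no filter to -0.15. Signal limits the 11 members without a tested probe, the 4c levels of Gins3 and most levels of Orc5 and Pole.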

Other observations

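Genes with more than 1 probe gave a view of how far single probes can be read. Of the 12 such members, Rpa3 had similar differences with both probes in 4c against 2c (-0.11 and -0.09, SD 0.21 and 0.28, n = 5), and Lig1 had differences below 0 with both (-0.39 and -0.21, SD 0.19 and 0.08). Orc3, whose brighter probe differed by 0.04 (SD 0.38), differed by -0.21 (SD 0.55) with the other. The 14 probes above background on no array had group means between -8.59 and -7.10.

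Summed linear levels of 6 cholangiocyte markers, Epcam among them, were 0.23 to 0.40 in 2c, 0.21 to 0.42 in 4c and 0.24 to 0.42 in 8c. Of the 2 tested, 1 was called, Epcam, lower in 4c and in 8c than in 2c.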
